A study of Mus musculus with 14 samples.

Results

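Type I interferon-stimulated genes were followed in long-term hematopoietic stem cells (LT-HSCs), rare marrow cells that can restore all blood lineages after transplantation. The set was a fixed list of 35 gene symbols, found by symbol among 55450 gene identifiers. Its rule uses no measured value, but the list was chosen with earlier results of these data known. All 35 were found, and all 35 passed the filter on low counts that left 16878 genes for testing. Type I interferons bind a receptor made of IFNAR1 and IFNAR2, and the kinases JAK1 and TYK2 then activate transcription factors, STAT2 among them. Together with IRF9 these bind the interferon-stimulated response element in promoters. The genes they switch on degrade viral RNA, restrict virus entry and release, and sense viral nucleic acid. Stem cells are known to hold part of this programme at a basal level, and interferon is known to drive quiescent mouse HSCs into cycle.

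RNA was measured in 14 libraries of 5000 sorted cells each, all from C57BL/6 females. The sort kept cells with Sca-1, c-Kit and CD150 that lacked CD48 and lineage markers. After transplantation, 3 libraries were Selp high-derived and 3 were Selp low-derived. For these, 1000 cells of either kind from donors older than 24 months had been given to lethally irradiated recipients aged 10 to 16 weeks. Donor-derived CD45.2+ LT-HSCs were sorted 16 weeks later with no gate on P-selectin. Before transplantation, 4 libraries were Selp high and 4 were Selp low, split by P-selectin, an adhesion receptor encoded by Selp, on the surface of cells from the same 4 mice older than 24 months. The labels name no engineered allele and no drug or interferon treatment in any group. The labels do not say whether each post-transplant library came from its own recipient, so p-values measure the spread between these libraries. Fits without a mouse block also count the Selp high and Selp low libraries of the same mouse as independent. Their p-values between stages therefore do not measure the spread between mice.

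Libraries held 22374794 to 38216775 reads assigned to genes. LT-HSC markers summed to 4222 to 4648 CPM, reads scaled to library size, in Selp high-derived, 3434 to 4140 in Selp low-derived, 4766 to 5659 in Selp high and 5004 to 5554 in Selp low libraries. Ly6a, also listed below as an interferon-stimulated gene, is among these markers. Selp itself had 614 to 764 CPM in Selp high libraries and 476 to 669 CPM in Selp low libraries, which overlap. Of 8 neutrophil marker genes, all were detected in every library. Their sum was highest in both libraries of mouse 4 (19305 CPM in Selp high and 14123 in Selp low) and in Selp low-derived replicate 2 (12039 CPM), and lay between 274 and 5775 CPM in the others.

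Compared per length, as TPM (reads scaled to exon length and depth), the 2 leading members encode interferon-induced transmembrane proteins, which block fusion of viruses with cell membranes. Ifitm3 averaged 5536 ± 1447 TPM and Ifitm1 2758 ± 947 TPM (SD, n = 14 libraries). Bst2, which encodes tetherin and holds budding virus at the cell surface, followed with 431 ± 70.2 TPM. The GTPase gene Gbp2 had 244 ± 43.4 TPM and the receptor chaperone gene Rtp4 203 ± 69.0 TPM. The range over libraries parted Ifitm1 from Bst2 and Bst2 from Gbp2, and all other neighbours in the order overlapped, Ifitm3 and Ifitm1 among them. Rank 6 was held by Oasl2 at 118 ± 32.0 TPM and rank 27 by Oasl1 at 22.1 ± 7.31 TPM, both of the oligoadenylate synthetase-like family. At the bottom stood the GTPase genes Mx2 with 1.78 ± 1.44 TPM and Mx1 with 0.564 ± 0.358 TPM. GENCODE annotates Mx2 as a polymorphic pseudogene. Mx1, an antiviral GTPase known to be defective in most laboratory mouse strains, had at most 37 reads in a library.

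**Figure D1:**
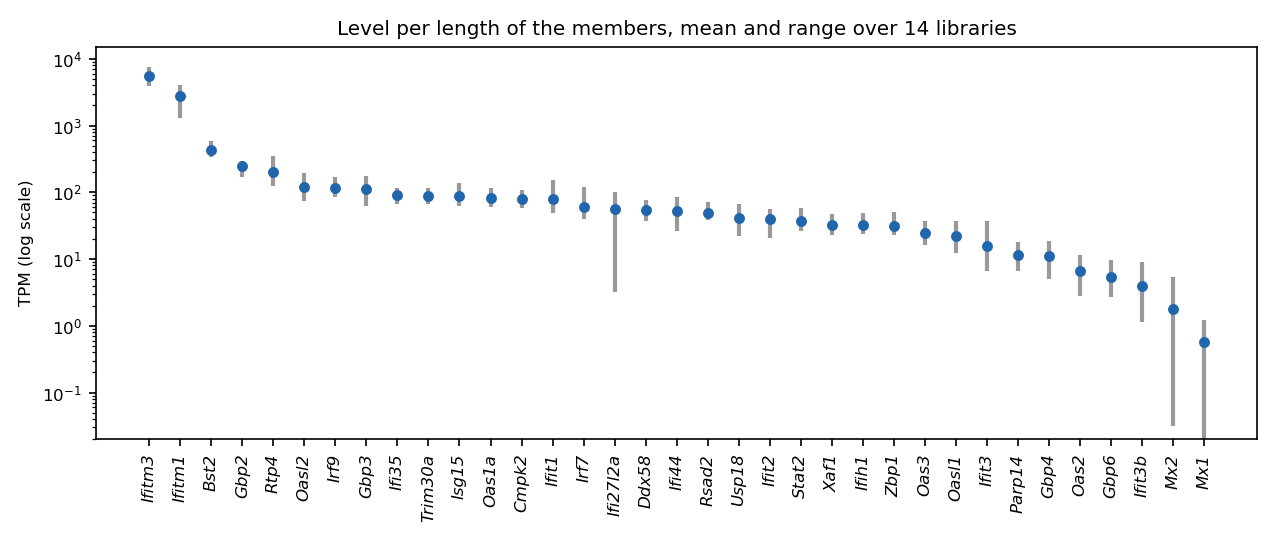
Mean level per length (TPM, log scale; points) and range (bars) of the 35 members over 14 libraries, in falling order. Ifitm3 (5536 TPM) and Ifitm1 (2758 TPM) stand above all others; the bar of Mx1 runs to the lower edge because 1 library had no read.

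Several members share sequence with another gene, so their counts are uncertain where reads could be split. Of the 50-base stretches of the transcripts, 70.65% in Gbp6, 57.57% in Oas1a, 51.24% in Ifit3 and 44.95% in Ifit3b also occur in another gene. The partners are Gm43302 and Gbp10, Oas1g and Oas1b, and for the Ifit3 pair each other. The share was 11.6% in Rtp4, whose exons also overlap Gm45338 over 13.9% of their bases, and 10.0% in Ifitm3. Counts did not use strand.

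The promoters of the members were examined for the core of the interferon-stimulated response element, GAAANNGAAA, on either strand. RefSeq windows on GRCm38.p6, each 250 bases before to 50 bases after a start, were at hand for 25 of the 35 members (29 windows). At least 1 match was found for 15 members, in 16 of the 29 windows (55.2%), against 3.44% of all 32851 promoters. Matches can overlap by 4 bases, and a match describes letters only. The stretches of 160 bases just before the start follow, 5′ to 3′ on the gene's strand, with matches in capitals. The first 5 belong to members that were lower after transplantation, the next 2 (Gbp2 and Oasl2) to highly expressed members that edgeR called in no comparison over all libraries without a mouse block, and the last 2 (Isg15 and Ifit1) to classical interferon targets chosen after their values were seen.
Ifitm1 (chr7:140967916-140968075, plus strand): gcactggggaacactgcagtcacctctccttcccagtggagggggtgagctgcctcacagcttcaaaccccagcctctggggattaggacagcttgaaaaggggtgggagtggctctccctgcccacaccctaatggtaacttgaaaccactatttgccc
Ifi44 (chr3:151749911-151750070, minus strand): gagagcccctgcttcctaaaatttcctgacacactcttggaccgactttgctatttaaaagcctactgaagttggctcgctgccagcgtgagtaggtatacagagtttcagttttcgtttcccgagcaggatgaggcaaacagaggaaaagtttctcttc
Ifitm3 (chr7:141010745-141010904, minus strand): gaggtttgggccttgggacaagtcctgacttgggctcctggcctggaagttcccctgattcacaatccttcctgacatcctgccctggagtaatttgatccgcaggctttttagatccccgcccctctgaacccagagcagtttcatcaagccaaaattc
Oas1a (chr5:120907526-120907685, minus strand): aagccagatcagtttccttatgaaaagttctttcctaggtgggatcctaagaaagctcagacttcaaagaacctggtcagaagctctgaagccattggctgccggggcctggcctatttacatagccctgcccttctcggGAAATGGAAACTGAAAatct
Bst2 (chr8:71537473-71537632, minus strand): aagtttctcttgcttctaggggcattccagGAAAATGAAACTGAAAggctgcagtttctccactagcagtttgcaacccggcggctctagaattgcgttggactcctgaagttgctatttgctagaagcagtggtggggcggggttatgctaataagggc
Gbp2 (chr3:142620503-142620662, plus strand): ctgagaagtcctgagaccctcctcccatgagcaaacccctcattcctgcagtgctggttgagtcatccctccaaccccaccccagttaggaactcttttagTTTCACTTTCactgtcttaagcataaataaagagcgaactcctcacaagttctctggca
Oasl2 (chr5:114896774-114896933, plus strand): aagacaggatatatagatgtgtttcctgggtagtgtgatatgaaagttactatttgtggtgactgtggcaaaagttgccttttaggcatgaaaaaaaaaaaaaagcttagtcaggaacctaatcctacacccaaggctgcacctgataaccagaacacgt
Isg15 (chr4:156200819-156200978, minus strand): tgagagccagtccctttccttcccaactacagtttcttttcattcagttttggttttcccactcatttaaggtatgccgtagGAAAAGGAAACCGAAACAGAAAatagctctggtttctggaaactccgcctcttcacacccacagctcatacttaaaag
Ifit1 (chr19:34640729-34640888, plus strand): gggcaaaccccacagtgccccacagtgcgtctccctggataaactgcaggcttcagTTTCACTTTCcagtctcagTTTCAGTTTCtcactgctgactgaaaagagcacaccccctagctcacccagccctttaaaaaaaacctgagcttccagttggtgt
Isg15 has 3 overlapping matches, the first starting 78 bases before the start. Ifit1 has matches 104 and 85 bases before the start, Bst2 at 130 and 124, Oas1a at 20 and 14 and Gbp2 at 59. The stretches of Ifitm1, Ifi44 and Oasl2 hold none, and the 2 matches of Ifitm3 lie behind its start, outside the stretch shown. The Ifitm1 stretch precedes a RefSeq start inside the annotated gene, which begins at chr7:140967221. Bases before that gene start were not examined.

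The first comparison asks how the genes differ in donor LT-HSCs after 16 weeks in young recipients. Of the 35 members, 6 were lower in post-transplant than in pre-transplant cells and 1 was higher, by edgeR's quasi-likelihood test with Benjamini-Hochberg adjustment over all genes. Lower members made up 17.1% of the list, against 14.6% of all genes called lower, and 12.9% of all genes were called higher and 27.4% in either direction. The genes that fell were the 3 membrane restriction factors Ifitm1, Ifitm3 and Bst2, the 2′-5′ oligoadenylate synthetase Oas1a, the chaperone gene Rtp4 and Ifi44. Gbp3 rose. No member's stages were without overlap, against 4.28% of all genes higher and 5.47% lower in all 6 post-transplant libraries. The median log2 change of the members was -0.18, against -0.01 for all genes, and 26 of 35 values were negative. In sorted bulk libraries, fewer cells of a type and less RNA per cell cannot be told apart.

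Ifitm1 (ENSMUSG00000025491.14, chr7:140967221-140969825 on GRCm38) had 434, 562 and 962 CPM (lowest, median, highest) in 6 post-transplant libraries, against 699, 1198 and 1469 CPM in 8 pre-transplant libraries. Its neighbour Ifitm3 (ENSMUSG00000025492.6, chr7:141009586-141010770) had 769, 801 and 1206 CPM after transplantation, against 897, 1379 and 1618 CPM before it. In both genes 1 post-transplant library, Selp low-derived replicate 2, reached into the pre-transplant range. The log2 changes were -0.92 ± 0.18 for Ifitm1 (SE; edgeR adjusted p = 0.00147) and -0.67 ± 0.14 for Ifitm3 (edgeR adjusted p = 0.00226). Bst2 (ENSMUSG00000046718.8, chr8:71534255-71537456) had 92.0, 99.5 and 122 CPM post-transplant, against 98.2, 128 and 174 CPM pre-transplant, with a log2 change of -0.37 ± 0.12 (edgeR adjusted p = 0.0268). Its groups overlapped more widely, and the call was lost without Selp high-derived replicate 1 or 3, Selp low-derived replicate 1 or 3, Selp high replicate 1, or both libraries of mouse 2 (edgeR adjusted p of at most 0.0622).

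Ifi44 (ENSMUSG00000028037.13, chr3:151730922-151749960), an interferon-induced gene linked to antiviral activity, had 48.2, 66.6 and 91.8 CPM in post-transplant libraries, against 90.9, 125 and 155 CPM in pre-transplant libraries. The groups met only at their edges, and the log2 change was -0.80 ± 0.15 (edgeR adjusted p = 0.00164). Rtp4 (ENSMUSG00000033355.6, chr16:23520291-23614222) had 80.0, 93.9 and 135 CPM after transplantation, against 96.4, 145 and 224 CPM before it, with a log2 change of -0.60 ± 0.15 (edgeR adjusted p = 0.00758). Oas1a (ENSMUSG00000052776.10, chr5:120896256-120907521), whose product makes the messenger that activates the ribonuclease RNase L, had 34.3, 40.4 and 44.2 CPM post-transplant, against 40.8, 54.6 and 65.2 CPM pre-transplant. Only the Selp low library of mouse 4 lay within its post-transplant range, and the log2 change was -0.45 ± 0.11 (edgeR adjusted p = 0.00747). Over the 6 genes that fell, the lowest pre-transplant library was Selp low of mouse 4 in 6 and the highest post-transplant library was Selp low-derived replicate 2 in 5, both libraries with high neutrophil marker sums.

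Gbp3 (ENSMUSG00000028268.14, chr3:142560026-142573209), a guanylate-binding GTPase gene also induced by interferon gamma, had 109.7, 128 and 159.6 CPM in post-transplant libraries, against 65.3, 97.9 and 127 CPM in pre-transplant libraries. The log2 change was 0.45 ± 0.15 (edgeR adjusted p = 0.0392). The call was lost when any of 9 libraries was left out singly (Selp high-derived replicate 1, 2 or 3, Selp low-derived 1 or 2, Selp high 3 or 4, Selp low 3 or 4).

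**Figure D2:**
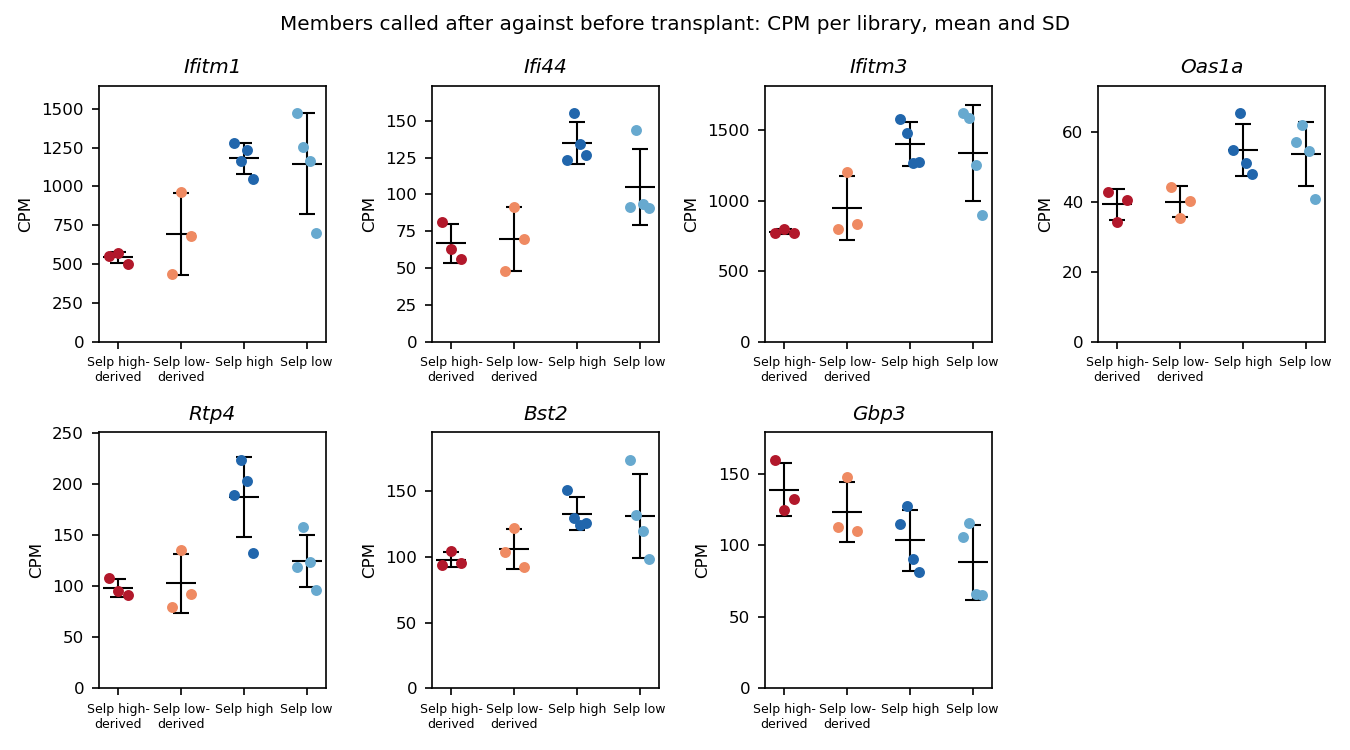
CPM of the 7 members called between stages, 1 point per library, with mean and SD (bars), by group (3, 3, 4 and 4 libraries); the axes start at 0. Ifitm1, Ifi44, Ifitm3, Oas1a, Rtp4 and Bst2 are lower in the derived groups on the left, Gbp3 is higher, and the ranges of the stages overlap in every panel.

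By role, all 3 membrane restriction factors fell, with log2 changes of -0.92 to -0.37. Of the 12 effectors acting on RNA and nucleotides (the Ifit and Oas families, Rsad2, Zbp1 and Cmpk2), 1 fell and none rose. Among these Ifit1, which binds foreign RNA ends, had a log2 change of -0.50 ± 0.24 (edgeR adjusted p = 0.137) and Oasl2 one of -0.34 ± 0.17 (edgeR adjusted p = 0.159). Of the 4 sensors and regulators of sensing, Rtp4 fell, and the RNA helicase sensors Ifih1 (0.12 ± 0.10) and Ddx58 (0.07 ± 0.13) and the regulator Trim30a (-0.12 ± 0.08) were not called. The 3 transcription factors had log2 changes of -0.15 ± 0.11 (Irf9), -0.18 ± 0.14 (Stat2) and -0.30 ± 0.27 (Irf7), none of them called. Neither Isg15, the ubiquitin-like modifier (-0.32 ± 0.18), nor Usp18, the protease that removes it (-0.07 ± 0.19), passed the test. Of the 6 GTPases, Gbp3 rose, and the sparse Mx2 (-1.52 ± 0.58, edgeR adjusted p = 0.0667) and Mx1 (-1.30 ± 0.54, edgeR adjusted p = 0.0881) were not called. Other fits called them lower: DESeq2 both (adjusted p = 0.0211 for Mx2 and 0.0468 for Mx1), limma voom Mx2 (adjusted p = 0.0357), and edgeR with a block by post-transplant number Mx1 (adjusted p = 0.0195). Of the other 5 genes, Ifi44 fell. The smallest changes were those of Oasl1 (-0.01 ± 0.24), Ifi35 (0.02 ± 0.11) and Oas3 (0.04 ± 0.18), and the sign of each turned under another setting.

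Of 8 T and NK cell markers, Nkg7 had 54.2 to 109 CPM in post-transplant libraries and 7.57 to 43.6 CPM in pre-transplant libraries. The other 7 summed to 0.178 to 2.87 CPM after and 0.303 to 11.6 CPM before transplantation, and each had the lower mean after it. Plasmacytoid dendritic cells are strong interferon producers that carry Bst2. Their other markers, 6 genes, summed to 15.7 to 57.2 CPM after and 12.6 to 86.7 CPM before transplantation. The part of these cells in the members' differences was not tested. Without mouse 4 and Selp low-derived replicate 2, the libraries with the highest neutrophil sums, 11 members (31.4%) were called lower and none higher, against 16.2% of all genes called lower and 15.3% called higher, and Gbp3 stood at 0.27 (edgeR adjusted p = 0.180). The 5 genes added were Oasl2, Xaf1, Mx2, Ifit3b and Ifit1. The libraries left out held the lowest pre-transplant value of all 6 genes that fell and the highest post-transplant value of 5. Leaving them out is therefore not a separate test of the fall. The median of the members, -0.18 over all libraries, was -0.35 in that setting, and -0.26 when the Selp high library of mouse 3 was left out. It was -0.09 when the Selp high library of mouse 2 was left out, -0.11 when that mouse's Selp low library was, and -0.05 when both were. In this last case Ifitm1, Ifitm3, Ifi44, Oas1a and Rtp4 were still called lower and Gbp3 higher.

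A block by mouse takes the differences between the pre-transplant mice out of the spread. Its p-values between stages therefore do not measure the spread between mice, and calls added under it carry this limit. With the mouse as a block, 9 members were called between stages, the same 7 with Oasl2 and Ifit1 added, both lower (edgeR adjusted p = 0.00414 and 0.0454). This was 25.7% of the members, against 33.2% of all genes called under the block, where 27.4% were called without it. Within the Selp high input, 5 members fell in Selp high-derived against Selp high libraries (14.3%, against 15.2% of all genes called, 7.63% higher and 7.62% lower). They were Ifitm1 (-1.12 ± 0.25, edgeR adjusted p = 0.00785), Ifi44 (-1.01 ± 0.22, edgeR adjusted p = 0.00668), Rtp4 (-0.93 ± 0.21, edgeR adjusted p = 0.00850), Ifitm3 (-0.84 ± 0.19, edgeR adjusted p = 0.00901) and Mx1 (-2.61 ± 0.81, edgeR adjusted p = 0.0430). The call of Mx1, at 0 to 0.252 CPM in Selp high-derived and 0.435 to 1.38 CPM in Selp high libraries, was lost under 13 of 24 other settings. In 8 members (these 5 with Oas1a, Bst2 and Mx2) every Selp high-derived library lay under every Selp high library, and 14.7% of all genes did so; no member lay wholly above, as 14.5% of all genes did. Ifitm1 had 550, 575 and 503 CPM in the 3 Selp high-derived libraries, against 1281, 1160.3, 1231 and 1045 CPM in Selp high libraries of mice 1 to 4.

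Within the Selp low input, edgeR called none of the 35 members in Selp low-derived against Selp low libraries (smallest adjusted p = 0.0724). Of all genes 11.5% were called (5.01% higher and 6.46% lower). At an unadjusted p under 0.05 there were 5 of the 35 members, against 27.2% of all genes. No member of this input was free of overlap, against 10.2% of all genes higher and 11.9% lower. DESeq2 called 2832 genes and 1 member, Ifitm1, and limma voom called 2099 genes and no member. With the mouse as a block 3 of the 35 members fell (Oasl2, Oas1a and Ifitm3) and Gbp3 rose. Of the 16878 genes tested, 1530 were then called lower and 1556 higher, 3086 in all, against 1936 without the block. Here too the p-values under the block leave out the spread between mice. Leaving out Selp low-derived replicate 2 gave 3 lower members (8.57%, against 4.74% of all genes), as did leaving out Selp low replicate 4 (8.61% of all genes). Ifitm1 had 434, 962 and 683 CPM in Selp low-derived libraries, against 1469, 1251, 1164 and 699 CPM in Selp low libraries of mice 1 to 4, and both Selp low-derived replicate 2 and mouse 4 broke the separation. The difference between the inputs itself was tested as an interaction: no member and no gene was called by edgeR (2 members and 874 genes, or 5.18%, at an unadjusted p under 0.05). DESeq2 called 11 genes and no member, and limma voom none. The members with the smallest p were Mx1 (-2.63 ± 1.06), Rtp4 (-0.66 ± 0.29), Usp18 (0.62 ± 0.39) and Trim30a (-0.28 ± 0.17).

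**Figure D3:**
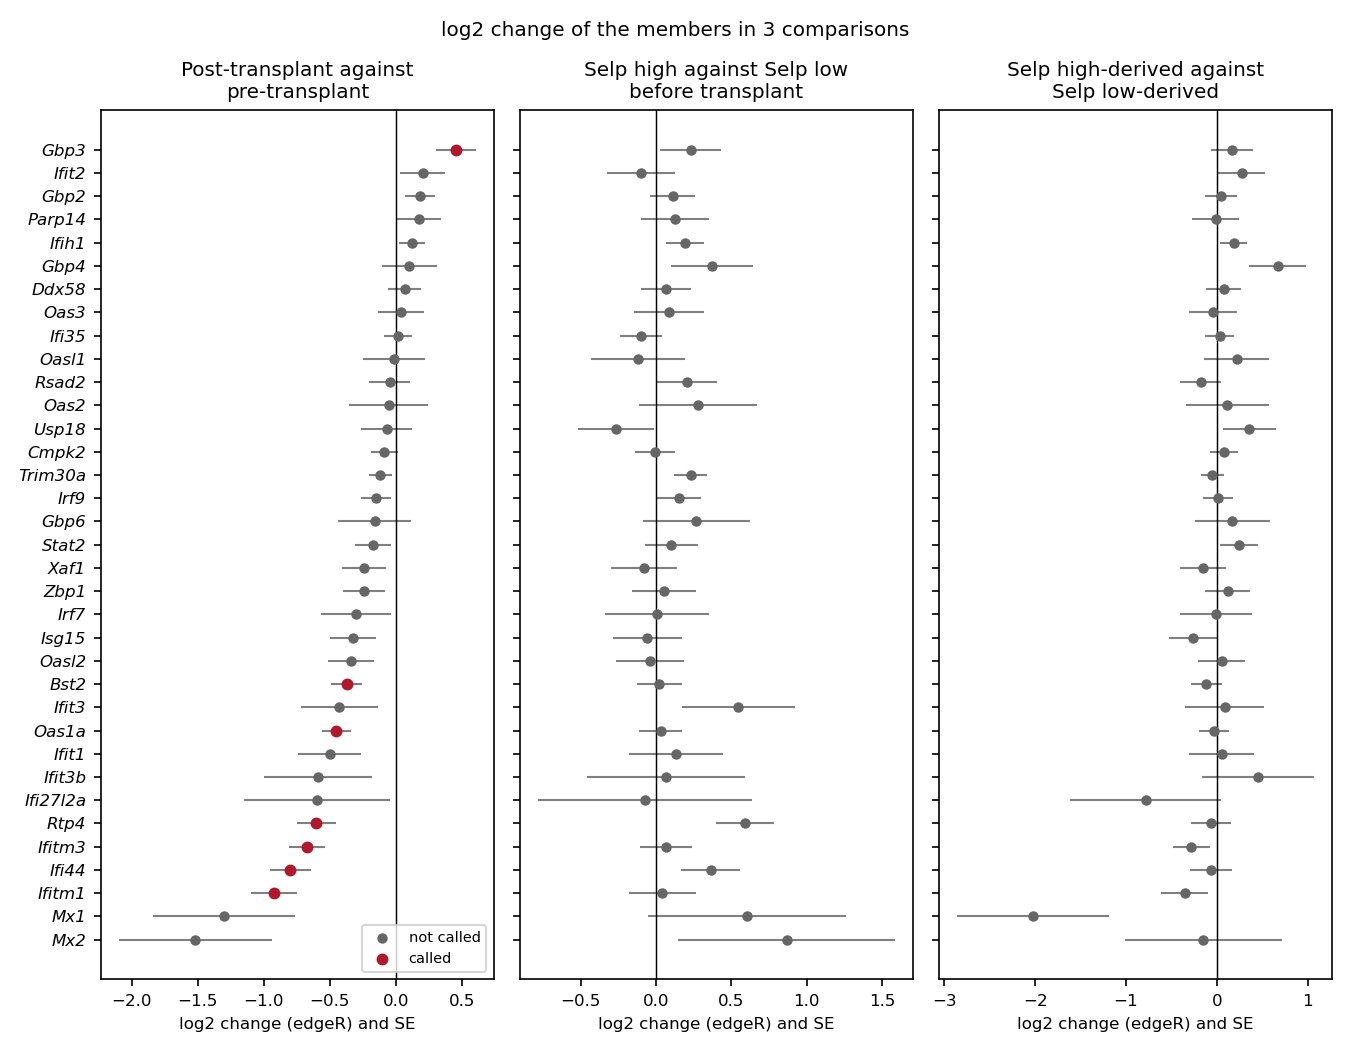
log2 change (points) with SE (bars) of the 35 members in 3 comparisons, with genes in the order of their change between stages; called members are in red. Between stages, 6 members lie on the negative side in red and Gbp3 on the positive side; neither comparison by P-selectin has a red point.

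The next comparison asks whether old LT-HSCs with high surface P-selectin differ from those with low. Before transplantation no member and no gene (0%) was called in Selp high against Selp low cells by edgeR. At an unadjusted p under 0.05 there were 863 genes (5.11%) and 1 member, Rtp4. That fit ignores the pairing of the fractions within mice. With the mouse as a block, edgeR called 0 genes, and 1508 genes had an unadjusted p under 0.05. DESeq2 called 11 genes and no member, and limma voom none. The members' median was 0.09, against -0.02 for all genes, and 26 of 35 values were positive. It was -0.01, 0.13 and 0.17 without Selp high replicate 2, 3 or 4, and 0.21, 0.05 and 0.02 without Selp low replicate 2, 3 or 4. Rtp4 had 189.5, 224, 202 and 132 CPM in Selp high libraries of mice 1 to 4, against 119, 158, 124 and 96.4 CPM in their Selp low libraries. Its level was the higher one in the Selp high library of each of the 4 mice, with a log2 change of 0.59 ± 0.19 (edgeR adjusted p = 0.957). Trim30a (0.23 ± 0.11), Ifi44 (0.36 ± 0.20) and Ifih1 (0.19 ± 0.13) came next. Ifih1 was the one member whose Selp high libraries all lay above the Selp low ones, at 77.9 to 85.6 CPM against 62.9 to 76.2 CPM (1.54% of all genes), and no member lay wholly below (1.55%).

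Within mice, 10 members (28.6%) were higher in the Selp high library in all 4 mice, as were 10.8% of all genes. They were Ifit3, Ifih1, Trim30a, Rtp4, Irf9, Gbp2, Gbp3, Gbp4, Gbp6 and Ifi44. Usp18 was the one member lower in the Selp high library of every mouse (12.2% of all genes were). Without mouse 4, 16 members (45.7%) were higher in the Selp high library of the 3 others, as were 19.0% of all genes. Leaving out mouse 1, 2 or 3 instead gave 11, 12 and 10 members, against 15.8%, 16.8% and 14.5% of all genes. Gbp3 had 115, 127, 90.5 and 81.4 CPM in Selp high libraries of mice 1 to 4, against 105, 116, 66.2 and 65.3 CPM in their Selp low libraries. The pairs of all 4 mice point one way, while the groups as a whole overlap.

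After transplantation, donor-derived cells were compared by the P-selectin level of the input, Selp high-derived over Selp low-derived. No member and no gene (0%) was called by edgeR. At an unadjusted p under 0.05 there were 765 genes (4.53%) and 1 member, Mx1. DESeq2 called 25 genes and no member, and limma voom none. The members' median was 0.03. Gbp4 was the one member whose Selp high-derived libraries all lay above the Selp low-derived ones (4.79% of all genes did), and Mx1 and Ifitm3 were the 2 that lay wholly below (5.54%). Mx1, with 0, 0.252 and 0.236 CPM in Selp high-derived libraries against 0.256, 0.938 and 0.815 CPM in Selp low-derived libraries, rests on few reads. Gbp4 had 39.3, 33.2 and 25.0 CPM in Selp high-derived libraries, against 13.9, 22.4 and 24.8 CPM in Selp low-derived libraries, which lie just below (log2 change 0.67 ± 0.32, edgeR adjusted p = 0.980). Ifitm3 had 769, 800.1 and 771 CPM in Selp high-derived libraries, against 802, 1206 and 833 CPM in Selp low-derived libraries. Its log2 change was -0.28 ± 0.20 and that of Ifitm1 was -0.35 ± 0.26. Without Selp low-derived replicate 2 these changes were -0.07 for Ifitm3 and -0.04 for Ifitm1.

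The 4 mice also differed among themselves, a pattern seen in the data and so described without a test. For 24 of the 35 members (68.6%), mouse 2 had the highest CPM of the 4 mice in both its Selp high and its Selp low library. Among all genes tested this held for 10.8%. The same count was 4 members in mouse 1, 0 in mouse 3 and 2 in mouse 4, against 13.2%, 7.19% and 15.7% of all genes. It stayed at 24 with CPM by total reads and with median-of-ratios factors, and was 25 to 27 when another mouse was left out, where it held for 15.2% to 17.9% of all genes.

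Irf7, the factor that amplifies interferon responses, had 135 CPM in the Selp high library of mouse 2, against 55.5, 61.2 and 51.6 CPM in mice 1, 3 and 4. In Selp low libraries it had 131 CPM in mouse 2, against 57.7, 63.0 and 49.4 CPM in the other mice. The values of mouse 2 were 2.41 and 2.32 times the mean of the other 3 mice. Ifit1 had 119 and 109 CPM in the Selp high and Selp low libraries of mouse 2, against at most 73.5 and 68.3 CPM in the other mice. Oasl2 had 369 and 337 CPM in mouse 2, against at most 239 and 274 CPM. Usp18, a negative regulator at the receptor as well as a protease, had 45.0 and 56.7 CPM in mouse 2, against at most 31.6 and 37.7 CPM. The median ratio of mouse 2 to the mean of the other mice was 1.42 over the members in Selp high and 1.47 in Selp low libraries, against 0.979 and 0.974 over all genes.

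By role, mouse 2 was highest in both fractions for 10 of 12 effectors on RNA and nucleotides, 3 of 4 sensors, 3 of 3 transcription factors, 2 of 2 genes of the ISG15 system, 3 of 6 GTPases and 3 of 5 other genes. It was highest for none of the 3 membrane restriction factors. Ifitm1, Ifitm3, Bst2 and Gbp2 were highest in both libraries of mouse 1, and Rsad2 and Ifi27l2a in both of mouse 4. Mouse 4 was lowest in both fractions for 16 members (45.7%, against 15.1% of all genes). Of the 24 members highest in mouse 2, 19 have a promoter window and 10 of these hold the motif spelled out above, as do 5 of 6 windowed genes among the other 11. Isg15, whose promoter has 3 overlapping matches, had 25.6 and 32.5 CPM in mouse 2, against at most 23.8 and 23.4 CPM in the other mice. Oasl2, with no match in the stretch shown, had a ratio of 1.77 in Selp high and 1.48 in Selp low cells, against 1.24 and 1.66 for Isg15.

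**Figure D4:**
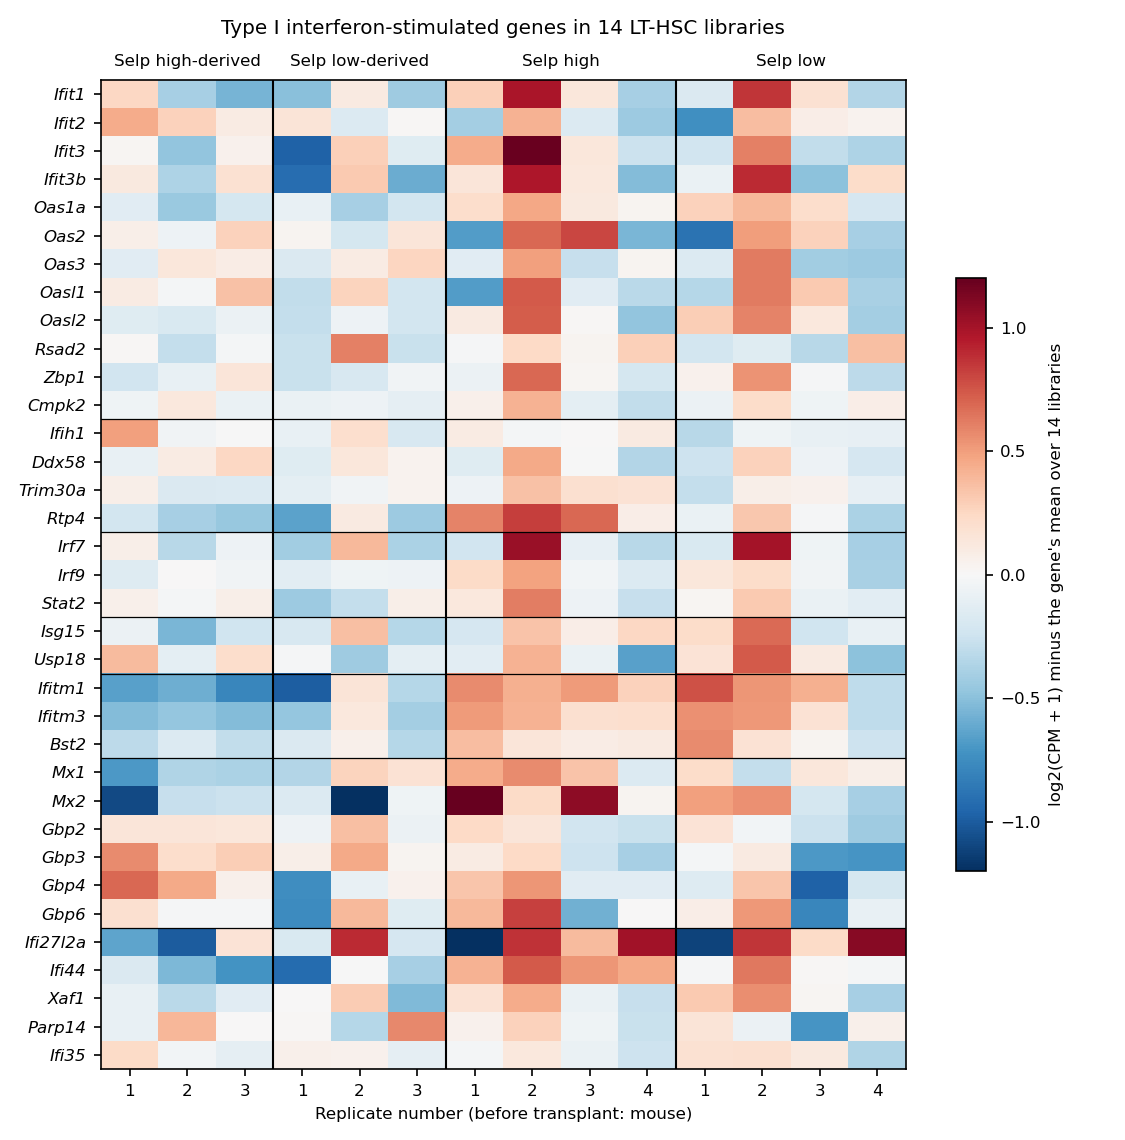
log2(CPM + 1) of each member minus its mean over 14 libraries, with libraries in columns by group and genes in rows by role (lines part the roles); red is above and blue below the gene's mean. Number 2 of Selp high and Selp low, the libraries of mouse 2, are red for most effectors, sensors and transcription factors (not for Ifih1, nor for Rsad2 in the Selp low library), while the 3 membrane restriction factors are red in most pre-transplant libraries and blue in most post-transplant ones.

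Set against the post-transplant libraries, both libraries of mouse 2 lay above all 6 of these for 24 members (68.6%, against 17.6% of all genes), and above all 12 other libraries for 16 members (45.7%, against 3.29%). The mean log2(CPM + 1) over the members was 5.36 to 5.48 in Selp high-derived and 5.23 to 5.59 in Selp low-derived libraries, 6.06 and 5.93 in the Selp high and Selp low libraries of mouse 2, and 5.34 to 5.62 in those of the other mice. The neutrophil marker sums of mouse 2 were 5775 and 3655 CPM and those of plasmacytoid dendritic cells 19.6 and 24.4 CPM, inside the range of the other mice. Its LT-HSC marker sums were the highest, 5659 CPM in the Selp high library, against at most 5241 CPM in the other mice, and 5554 CPM in the Selp low library, against at most 5358 CPM. These sums include Ly6a, an interferon-stimulated gene that was itself highest in both libraries of mouse 2. They are therefore not separate from the pattern of the members. The erythroid marker sum of mouse 2 in the Selp low library was the lowest, 105 CPM against 332 to 2154 CPM. What set mouse 2 apart was not tested.

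**Figure D5:**
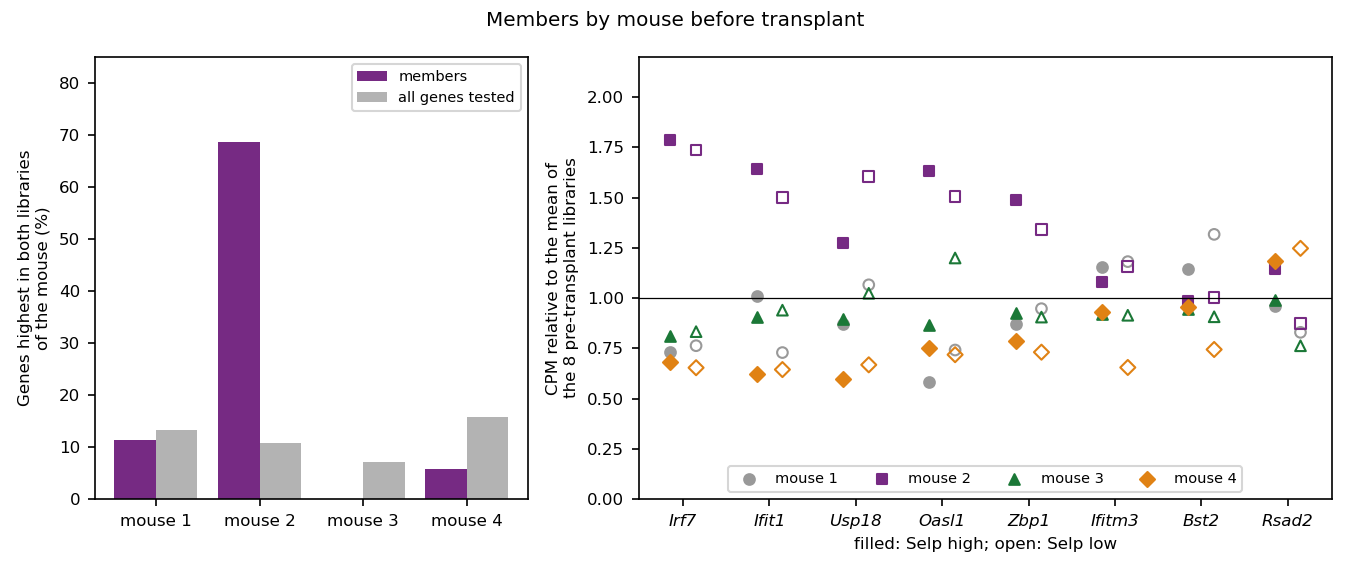
Left, the percentage of the 35 members (purple) and of all genes tested (grey) whose CPM was highest in both libraries of a mouse; 68.6% of members are highest in mouse 2, against 10.8% of genes. Right, CPM of 8 members, chosen after their values were seen, relative to the mean of the 8 pre-transplant libraries (filled, Selp high; open, Selp low); mouse 2 stands above the other mice for Irf7, Ifit1, Usp18, Oasl1 and Zbp1 but not for Ifitm3, Bst2 or Rsad2.

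Other genes of the pathway came from a list of 89, of which 77 passed the filter. Of the 11 interferon ligands none did. Ifnb1 had at most 11 reads in a library, Ifng 7 and Ifnk 2, and the other 8 had none, so ligand transcripts were not detectable or close to it at this depth. Between stages 8 of the 77 genes rose and 11 fell, with a median log2 change of 0.01. Of all genes tested, 12.9% were called higher and 14.6% lower. The receptor gene Ifnar1 fell, with 89.4, 108 and 111 CPM in post-transplant libraries against 111, 124 and 137 CPM in pre-transplant libraries (-0.24 ± 0.07, edgeR adjusted p = 0.0276). The call was lost with no filter, without Selp low-derived replicate 2, Selp high replicate 1 or Selp low replicate 2, and without mouse 2 (edgeR adjusted p of at most 0.0677). Ifnar2 was not called (0.17 ± 0.07, edgeR adjusted p = 0.0744).

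Socs3, which encodes a cytokine-inducible inhibitor of JAK kinases, showed the largest change on the list. It had 6.15, 15.9 and 42.1 CPM in post-transplant libraries, against 187, 348 and 636 CPM in pre-transplant libraries, with no overlap (-4.44 ± 0.45, edgeR adjusted p = 1.188e-05). Ptpn11, the gene of the phosphatase SHP2, rose by 0.63 ± 0.08 (edgeR adjusted p = 9.376e-05). Among sensors and adaptors Tlr4 (-0.86 ± 0.12), which senses bacterial lipopolysaccharide, and its adaptor Myd88 (-0.46 ± 0.07) fell. Of 38 further interferon-stimulated genes 3 rose and 5 fell, where 12.9% of all genes were called higher and 14.6% lower. Those called include Slfn2 (-1.17 ± 0.15), Ly6e (-0.73 ± 0.12), Slfn5 (-0.84 ± 0.19) and Phf11b (0.91 ± 0.20). Ly6a, which encodes Sca-1 and so belongs to the sort, had a log2 change of -0.68 ± 0.24 (edgeR adjusted p = 0.0464), and the call was lost under 14 of 24 other settings. In neither comparison by P-selectin was a gene of the list called by edgeR.

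The pattern by mouse extended to this list. For 39 of the 77 genes (50.6%) mouse 2 was highest in both fractions, against 10.8% of all genes. They were 6 of 8 receptors and kinases, 5 of 8 transcription factors, 20 of 38 further interferon-stimulated genes, 6 of 15 sensors and adaptors and 2 of 8 negative regulators. Ly6a had 716 and 669 CPM in the Selp high and Selp low libraries of mouse 2, against at most 513 and 461 CPM in the other mice. The ligand Ifnb1 had 0.112 and 0 CPM in mouse 2, which are 3 reads and 0 reads.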

How the data were processed

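The deposited files hold whole-number counts of reads per gene. The submitters' processing notes name STAR 2.7.0d, FastQC 0.11.9, Picard 2.23.0 and the build GRCm38. The unstranded counts were taken, since the sums by strand had a ratio of 0.989 to 0.999. Unmapped (3.35 to 5.06%), multimapping (9.93 to 13.4%), unassigned (3.37 to 5.13%) and ambiguous (4.20 to 4.79%) reads were left out. All 55450 identifiers matched GENCODE M21, which gave symbols, GRCm38 positions and exon lengths.

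Counts were fitted with edgeR 4.0.16 in R 4.3.3 (4 group means over 14 libraries, TMM factors of 0.963 to 1.042, expression filter with a minimum count of 10, 10 residual degrees of freedom, coefficient of variation 0.322). A gene was called at an adjusted p under 0.05, and the SE comes from the log2 change and its F statistic. The fit was tested on simulated data, with planted changes larger than those of the members called between stages and with libraries drawn independently. It therefore does not measure how the fit handles smaller changes or libraries of the same mouse. CPM are counts relative to assigned reads after TMM, and TPM use exon lengths. Alternatives were other scaling and filters, DESeq2 1.42.0, limma 3.58.1 voom, a replicate block and leaving out libraries.

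Before transplantation the replicate number was taken as the mouse: deviations of same-numbered libraries correlated across genes with r of 0.26 to 0.50, those of others with -0.38 to 0.04. No pair of libraries in a group was as alike as sampling noise allows. The members and lists were chosen with earlier results of these data known. Genes named with values are the called members, up to 4 of the smallest p in each comparison, the 5 of highest level and the 3 of smallest change between stages, plus up to 8 called pathway genes and Ifnar1, Ifnar2 and Ly6a, with 1 gene of the rule not reported here; others named were chosen after their values were seen.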

Additional observations from a re-analysis of the deposited data

Results flagged for a closer look

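Of 70 sets of 4 libraries examined (each member in Selp high and in Selp low), 4 had a library far from the other 3, and chance alone flags about 1 set in 20. All 4 were libraries of mouse 2. Irf7 had 135 CPM in the Selp high library of mouse 2, against 51.6 to 61.2 CPM in the other mice, and 131 CPM in its Selp low library, against 49.4 to 63.0 CPM. Ifi44 had 144 CPM in the Selp low library of mouse 2, against 90.9 to 93.4 CPM. Ifit3, which shares sequence with Ifit3b, had 12.3 CPM there, against 5.80 to 6.51 CPM.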

How the results depend on the processing

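Ifitm1, Ifitm3, Ifi44, Oas1a and Rtp4 were called lower between stages under all 24 alternatives, Bst2 under 18 and Gbp3 higher under 13. Members called between stages ran from 5 to 6 lower and 0 to 1 higher with 1 library left out. With mouse 4 and replicate 2 of Selp low-derived left out, 11 were called lower and 0 higher. In the Selp high input that setting and DESeq2 each gave 8 lower (22.9%, against 9.05% and 10.7% of all genes called lower, and 7.62% over all libraries by edgeR); the median was 0.0136 without mouse 2, and -0.31 to 0.0139 with single libraries left out, with 1423 to 2827 genes called. In the Selp low input there were 5 lower members (14.3%, against 7.79% of all genes) and a median of -0.44 without mouse 4 and Selp low-derived replicate 2. DESeq2 called 1 lower member there, where it called 1617 genes lower. With single libraries left out, 0 to 3 were lower, 803 to 2723 genes were called, and the median was -0.32 to -0.0003. By P-selectin before transplantation, 1 gene was called with no filter, 11 by DESeq2 and 0 to 2 with single libraries left out, where the members' median was -0.01 to 0.21. After transplantation DESeq2 called 25 genes, and for the difference of differences 11. Within mice, 16 members were higher and 3 lower in all mice without mouse 4, and 2 lower without mouse 2 (19.0%, 22.2% and 19.2% of all genes). Without mouse 1, 2 or 3, 10 to 12 members were higher (14.5% to 16.8% of all genes). Oasl1 turned to 0.0565 with limma voom, 0.28 without mouse 2 and -0.12 to 0.17 with single libraries left out. Ifi35 turned to -0.085 and Oas3 to -0.033 without mouse 4 and Selp low-derived replicate 2, and ranged from -0.049 to 0.044 and from -0.024 to 0.19 with single libraries left out. The causes were not tested.

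The replicate block by mouse leaves the spread between mice out of the p-values between stages. Under it, 1 member was higher within the Selp high input, where 1838 genes were called higher. Within the Selp low input 1 was higher and 3 were lower, where 3086 genes were called (1556 higher and 1530 lower). Oasl1 stood at 0.073 between stages under this block. Post-transplant numbers did not pair the libraries (r of -0.04 to 0.02), and with a replicate block by these numbers 0 members were called higher (Gbp3 0.45, edgeR adjusted p = 0.0581). Mx1, with at most 37 reads in a library, is the member with the fewest reads.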
